A study of Mus musculus with 2 samples.

Results

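Csf1, Csf2 and Tnfsf11 encode 3 secreted or membrane-bound signals, M-CSF, GM-CSF and RANKL, and Csf1r, Csf2ra, Csf2rb and Tnfrsf11a encode the receptor chains that bind them. These 7 of the 32285 genes in the deposited matrices were chosen by symbol, from UMI counts of the same libraries that had already been seen to differ between the groups. Ligands were to be read by T cell subset and receptors by myeloid type, in cells that had 500 or more genes detected and no more than 10% of UMIs from mitochondrial genes. The values of the 2 groups are therefore a description of these libraries and carry no test.

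The study profiled single cells from lung tumours of chimeric mice, sorted as CD4pos and CD8pos T cells, with a droplet assay that counts transcripts at their 3' end by unique molecular identifiers (UMIs). In the WTKL library, Tmem173fl/fl marrow had been placed in recipients that carry Lkb1fl/fl. In the LYZKL library the marrow was Tmem173fl/fl;Lyz2-Cre and the recipients were of the same genotype. Both received Ad-Cre by the nose, which removes Lkb1 in the recipient's lung cells, and both were taken 8 weeks later. Floxed Tmem173, the gene for the DNA-sensing adaptor STING (MITA), is thus common to both groups, and Lyz2-Cre, which is active in macrophages, monocytes and neutrophils, is the labelled difference. Tamoxifen is named in the treatment label of WTKL alone. Each group is 1 library, the labels do not say how many mice went into it, and they do not give the share of blood cells that came from the donor marrow.

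M-CSF acts through the receptor tyrosine kinase Csf1r and keeps macrophages alive and dividing. GM-CSF binds Csf2ra, and the shared beta chain Csf2rb then carries the signal inside through the kinase Jak2 and the factor Stat5; in the lung it is needed for alveolar macrophages to mature. RANKL on T cells, stromal cells and bone cells binds RANK, the product of Tnfrsf11a, and is best known for turning M-CSF-dependent precursors into osteoclasts; it also acts on dendritic cells and on lymph node and thymus development.

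Csf1 (minus strand of chromosome 3, 107741048 to 107760469, GRCm38) and Tnfsf11 (minus strand of chromosome 14, 78277445 to 78308043) were the ligands with higher levels in LYZKL in the same CD8-type cluster described below, so the 250 bases before each of their starts are shown. They come from RefSeq with build GRCm38.p6, span chr3:107760470-107760719 and chr14:78308044-78308293, and are written 5′ to 3′ on the gene's strand. Capitals mark GGAAA on either strand, the core that NFAT factors bind, and GGGCGG on either strand, the GC box.
Csf1: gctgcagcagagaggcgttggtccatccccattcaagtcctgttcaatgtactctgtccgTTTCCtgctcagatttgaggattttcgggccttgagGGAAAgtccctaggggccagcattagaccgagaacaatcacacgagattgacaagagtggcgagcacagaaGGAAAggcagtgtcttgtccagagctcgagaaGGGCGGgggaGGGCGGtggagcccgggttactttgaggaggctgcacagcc
Tnfsf11: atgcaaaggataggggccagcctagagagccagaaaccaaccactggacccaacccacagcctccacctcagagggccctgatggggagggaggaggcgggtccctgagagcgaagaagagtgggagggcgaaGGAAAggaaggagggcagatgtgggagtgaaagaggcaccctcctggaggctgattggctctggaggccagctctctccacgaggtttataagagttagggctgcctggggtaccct
The Csf1 window held 3 NFAT cores and 2 GC boxes, and the Tnfsf11 window held 1 NFAT core and 0 GC boxes. An AP-1 motif, TGANTCA, was in neither, and no matches overlapped. Over the 32851 windows of the same length in the table, 55.6% held an NFAT core, 32.7% a GC box and 6.75% an AP-1 motif, so a match to the first 2 is common. A window was given for 5 of the 7 members. Of the other members, Csf2 lies on chromosome 11 at 54247271 to 54249667, Csf2ra on chromosome 19 at 61223957 to 61228429, Csf2rb on chromosome 15 at 78325752 to 78353847 and Tnfrsf11a on chromosome 1 at 105780718 to 105847981.

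The filter and the removal of predicted doublets left 10850 WTKL and 12004 LYZKL cells (median UMIs 4677 and 5074) in 20 clusters made without the members and their related genes. The libraries shared 100 barcodes, 76 of them among the kept cells. The cells did not all go with the sort. Clusters with the defining T cell markers held 72.7% of WTKL and 69.4% of LYZKL cells, neutrophil-like clusters 13.1% and 18.5%, and macrophage-like clusters 7.56% and 7.84%. Tmem173 itself stood at 18.9 and 3.75 UMIs per 1000000 (CPM) in neutrophil-like cells of WTKL and LYZKL, at 42.7 and 33.8 CPM in macrophage-like cells and at 28.5 and 48.0 CPM in T cell clusters. It was thus much lower in LYZKL neutrophil-like cells, little lower in macrophage-like cells and higher in T cells. Whether the 3' tags lie in the removed part of the gene is not given in the sources used here. In all values below, CPM scales a gene's UMIs by all UMIs of the cells named, WTKL is given before LYZKL, log2 ratios are LYZKL over WTKL, and 95% intervals are for counting error and leave out the spread between mice.

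Csf1 came mostly from other cells than Csf2 and Tnfsf11, which were both T cell genes here. Neutrophil-like cells gave 67.8% of all Csf1 UMIs in WTKL and 49.9% in LYZKL, and a CD8 tissue-type-like T cell cluster, cluster 0, gave 11.02% and 32.9%. Tnfsf11 came almost wholly from T cells, with 94.8% and 94.2% of its UMIs in T cell clusters, and Csf2 was as restricted, at 93.2% and 95.3%. Within the T cells, the clusters with Cd4 and little Cd8a other than the naive-type cluster 4 (clusters 1, 2, 5, 6 and 8, called Cd4-type below) held 81.4% of WTKL and 58.2% of LYZKL Tnfsf11 UMIs, and cluster 0 held 4.14% and 23.9%. Cluster 0 itself was 515 cells in WTKL and 2169 in LYZKL, 80.8% of its cells being from LYZKL. These shares therefore move with how many cells of each type were captured. The levels of single clusters below are scaled to the UMIs of that cluster and do not. Levels of pooled clusters, such as neutrophil-like, macrophage-like, Cd4-type or all T cells, still depend on the share of each cluster.

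**Figure D1:**
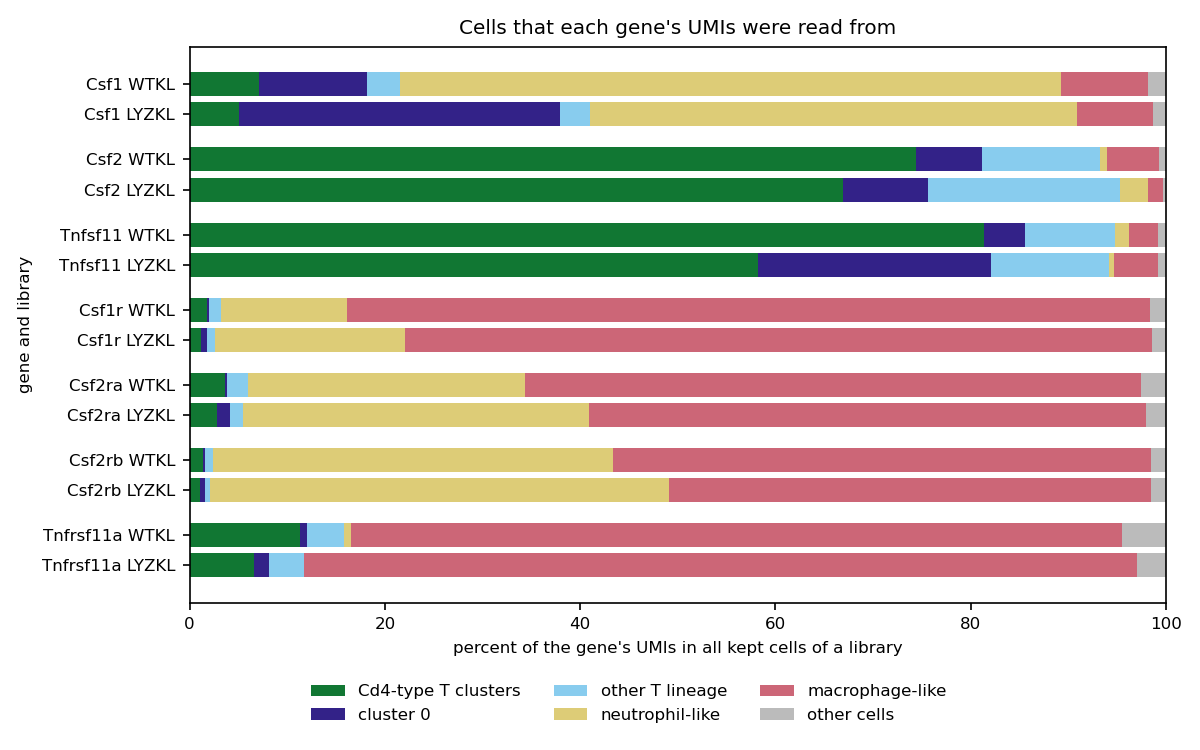
Share of each gene's UMIs by source, in percent of the gene's UMIs over all kept cells (horizontal axis), as stacked bars for WTKL and LYZKL. Colours mark the Cd4-type T clusters, cluster 0, other T clusters, neutrophil-like, macrophage-like and other cells. Cluster 0 takes 11.02% of Csf1 UMIs in WTKL and 32.9% in LYZKL, and the receptors come mostly from macrophage-like and neutrophil-like cells.

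Csf1, the growth factor of macrophages, was highest in neutrophil-like clusters 13 and 3, at 368 and 330.3 CPM in WTKL and at 286 and 333 CPM in LYZKL. The counting intervals of those 2 clusters overlapped in each library, so their order is not resolved. Of the named clusters, cluster 0 came next at 92.4 and 146 CPM, followed by neutrophil-like cluster 11 at 34.3 and 35.5 CPM; the small unnamed clusters 17 (36.5 and 49.1 CPM from 8 and 10 UMIs) and 19 (83.3 and 112 CPM from 12 and 36 UMIs, mixed B and T cell markers) lay above cluster 11. Among the 11 T cell clusters no other exceeded 25.6 CPM in either library, and B-like cells stood at 5.69 and 6.35 CPM. Csf1 transcripts were thus most frequent in neutrophil-like cells and in 1 T cell cluster. Between the libraries, neutrophil-like cluster 3 (led by Hcar2 and Ccl3) differed by a log2 ratio of 0.0099 (−0.12 to 0.14), and cluster 13 (led by G0s2) by −0.37 (−0.63 to −0.11).

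In cluster 0, Csf1 had 226 UMIs in WTKL and 1411 in LYZKL, a level 1.58-fold higher in LYZKL, with a log2 ratio of 0.66 (0.46 to 0.87). With each cell thinned to 2000 UMIs, which left out 35 WTKL and 202 LYZKL cells with fewer, a Csf1 UMI was found in 15.2% of WTKL and 21.9% of LYZKL cells; unthinned, the shares were 24.9% and 35.0%. In B-like cells, which should lack it, the thinned shares were 0.774% and 0.576%, far under those of cluster 0. The UMIs were spread over many cells, with the top 3 cells holding 11.1% in WTKL and 1.91% in LYZKL. In cluster 0 the summed macrophage list stood at 673 and 539 CPM and the neutrophil list at 242 and 248 CPM. How much of the Csf1 there came from myeloid RNA was not tested. The ratio was 0.63 at the finer resolution of 2 and 0.69 with another seed, and larger at the coarser resolution of 0.5 (1.34), with 15 principal components (1.36) and with cells classed by marker UMIs (1.66).

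A further pair of clusters, one CD8-type and one cytotoxic, had few Csf1 UMIs but more of them in LYZKL. In the CD8 memory or effector-like cluster 9, 11 and 47 UMIs gave 4.39 and 18.6 CPM, a log2 ratio of 2.08 (1.11 to 3.18). In cluster 16, led by Gzmb and Gzma, 17 and 22 UMIs gave 7.002 and 25.6 CPM, which is a log2 ratio of 1.87 (0.89 to 2.87). The Treg-like cluster 5 stood at 13.5 and 19.99 CPM, with a log2 ratio of 0.57 (0.04 to 1.11). Over all T cell clusters Csf1 was at 9.86 and 32.8 CPM, a gap in which the larger number of cluster 0 cells in LYZKL and the higher level within it both count.

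Macrophage-like cells held little Csf1. The Cfb and Saa3 cluster 7 stood at 18.7 and 28.6 CPM (144 and 317 UMIs; log2 ratio 0.61, 0.32 to 0.90), and the C1q and Vcan cluster 15 at 8.26 and 6.71 CPM. Restricted to cluster 7 cells with no UMI of Cd3e, Cd3d, Cd3g or Trac, the 15 WTKL and 76 LYZKL UMIs gave 10.4 and 23.6 CPM. That higher level in LYZKL was therefore also present in cells with no T cell transcript seen, although it rests there on few UMIs. The split does not cover RNA from neutrophil-like cells, the main source of Csf1. Over all of cluster 7 the summed neutrophil list stood at 1482 and 1804 CPM. How much of the Csf1 there came from such RNA was not tested.

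Tnfsf11, the RANKL gene, was highest in the CD4 Th17-like cluster 6, with 445 CPM for WTKL and 308 for LYZKL. In WTKL it was followed by cluster 2, which is led by Il17a and Il17f, at 304 CPM, by cluster 1, led by Il22, Ccr4 and Ramp3, at 236 CPM, and by the Tfh-like cluster 8 at 157 CPM. Those 4 levels did not overlap in their counting intervals, while clusters 0 and 14 below them, both at 125 CPM, were not told apart. In LYZKL the second place was taken by cluster 0 at 199.6 CPM, ahead of cluster 2 at 179 CPM and cluster 1 at 143 CPM. The naive-type clusters 4 and 12 had 5.56 and 2.48 CPM in WTKL and 4.64 and 1.46 CPM in LYZKL, no more than the 14.7 and 5.64 CPM of B-like cells. Cluster 16, led by Gzmb and Gzma, was also under the B-like level in WTKL, at 8.65 CPM, though not in LYZKL. RANKL transcripts were thus well above the B-like level in most differentiated T cell clusters, Cd4-type and CD8-type, and not in naive-type ones.

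Between the libraries, Tnfsf11 was lower in LYZKL in each of the 5 Cd4-type clusters and higher in cluster 0. In cluster 6, 1245 and 2216 UMIs gave a log2 ratio of −0.53 (−0.63 to −0.43), and thinned cells with a UMI made up 44.5% and 36.9%. In cluster 2, 2075 and 899 UMIs gave −0.77 (−0.88 to −0.65), with 35.7% and 23.1% of thinned cells. In cluster 1, 1904 and 1099 UMIs gave −0.73 (−0.84 to −0.62). The same sign was seen in a helper cluster and in regulatory cells: the Tfh-like cluster 8 had 157 and 87.9 CPM (−0.83, −1.05 to −0.62) and the Treg-like cluster 5 had 87.3 and 41.3 CPM (−1.08, −1.35 to −0.81). Over the Cd4-type clusters together Tnfsf11 stood at 248 and 169 CPM, or a log2 ratio of −0.55 (−0.61 to −0.50). With cells classed by marker UMIs the ratio of cluster 8 was 0.0090, and with another seed that of cluster 6 was −0.21; in clusters 1, 2 and 5 the sign was negative in each alternative run. By marker UMIs, Tnfsf11 was at −0.40 in cluster 2, no longer past 1.5-fold, and at −0.63 in cluster 5.

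The named CD8-type clusters other than the naive-like one, and the unnamed cytotoxic cluster 16, lay on the other side. Cluster 0 had 305 and 1926 Tnfsf11 UMIs, 125 and 199.6 CPM, with a log2 ratio of 0.68 (0.50 to 0.86), and 15.8% and 23.3% of thinned cells had a UMI against 1.55% and 0.576% of B-like cells. Cluster 9 had 35.1 and 55.4 CPM (0.66, 0.26 to 1.06). Cluster 16 had 8.65 and 75.5 CPM from 21 and 65 UMIs (3.13, 2.40 to 3.91), but 3 cells held 55.4% of its LYZKL UMIs. The cycling-like cluster 14, which mixes lineages, had 125 and 115 CPM (−0.12, −0.28 to 0.05). Summed over all T cell clusters these opposite differences nearly cancelled, at 156 and 142 CPM with a log2 ratio of −0.14 (−0.19 to −0.09).

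**Figure D2:**
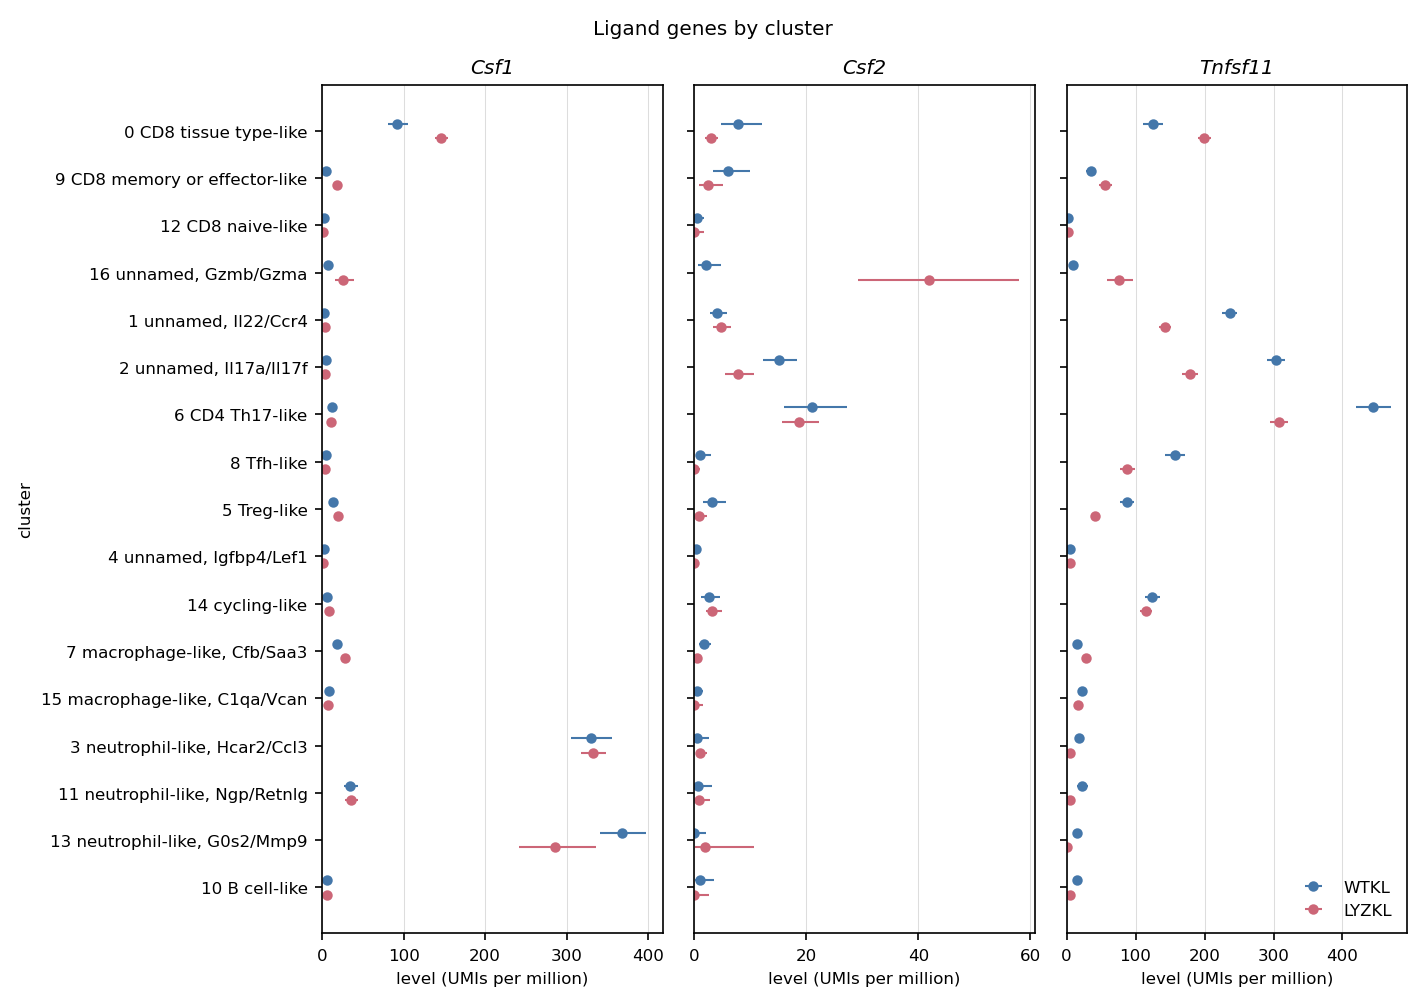
Levels of Csf1, Csf2 and Tnfsf11 in CPM (scaled to the UMIs of the cluster) in the 11 T cell clusters, 5 myeloid clusters and B-like cells of WTKL and LYZKL; points are levels and bars 95% Poisson intervals for counting error. Tnfsf11 is lower in LYZKL in clusters 1, 2, 5, 6 and 8 and higher in clusters 0, 9 and 16.

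Macrophage-like cells also gave Tnfsf11 UMIs, at 17.6 and 26.5 CPM (216 and 358 UMIs; log2 ratio 0.60, 0.35 to 0.85). Nearly all of them sat in cells that also held T cell transcripts: the 240 WTKL and 367 LYZKL macrophage-like cells with no UMI of the 4 T cell markers had 6 UMIs in each library, 2.23 and 1.43 CPM, while the other 580 and 574 cells had 21.9 and 37.9 CPM. Without those cells the log2 ratio turned to −0.64. All 8 genes of the T cell marker list had UMIs in macrophage-like cells, and their sum was 1032 and 739 CPM, against 5330 and 5121 CPM in T cells. In neutrophil-like cells Tnfsf11 was 18.5 and 4.77 CPM, and the T cell list moved the same way, from 582 to 238 CPM. How much of the myeloid Tnfsf11 was T cell RNA was not tested beyond this split.

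Csf2, the GM-CSF gene, was rare, with 281 UMIs in all WTKL and 320 in all LYZKL cells. Cluster 6 stood at 21.1 and 18.7 CPM (59 and 135 UMIs; log2 ratio −0.17, −0.62 to 0.30). As a mean of per-cell CPM that ratio was 0.63 and with 15 principal components 0.32, so its sign is not settled, and the top 3 cells held 76.3% and 55.6% of those UMIs. Cluster 2 stood at 15.1 and 7.75 CPM (103 and 39 UMIs; −0.96, −1.53 to −0.42), and thinned cells with a UMI made up 3.25% and 1.14%. Csf2 in cluster 2 was thus lower in LYZKL and spread over cells in WTKL, where the top 3 cells held 9.71%, and 38.5% in LYZKL, whereas the level in cluster 6 rested on a few cells with many UMIs. The counting interval of a level assumes UMIs that fall independently, which such cells do not give.

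Other Csf2 values rested on still fewer cells. In cluster 16, 5 UMIs in 377 WTKL cells and 36 in 104 LYZKL cells gave 2.06 and 41.8 CPM (4.34, 2.99 to 6.05). In LYZKL 8 cells held those UMIs, with 86.1% in the top 3, and the ratio was −3.16 when cells were classed by marker UMIs, so the level of Csf2 in these cells is not settled. In cluster 0, 19 and 28 UMIs gave 7.77 and 2.90 CPM (−1.42, −2.31 to −0.50), and 1 WTKL cell held 13 of the 19; without the top cell of each library the levels were 2.45 and 1.97 CPM. Treg-like cells stood at 3.16 and 0.909 CPM from 11 and 4 UMIs. Over all T cell clusters Csf2 stood at 5.86 and 5.68 CPM (−0.04, −0.29 to 0.20), and macrophage-like cells, at 1.22 and 0.371 CPM, were near the 0.949 CPM that 2 UMIs gave in WTKL B-like cells.

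Csf1 and Tnfsf11, though both higher in LYZKL cells of cluster 0, were found together at shares near those of Tnfsf11 in cells without Csf1. Among thinned cells of cluster 0, Tnfsf11 was found in 17.3% of the 75 Csf1-positive and 16.05% of the Csf1-negative cells of WTKL, and in 22.5% of the 453 positive and 22.8% of the negative cells of LYZKL. Ccl4, a chemokine of activated CD8 cells, was found in 60.0% of Csf1-positive and 53.6% of Csf1-negative WTKL cells and in 68.9% and 58.9% of LYZKL cells. Tnfsf11 went with Cd40lg, another ligand of the TNF family on helper cells: in cluster 1, Cd40lg was in 50.1% of positive and 39.1% of negative WTKL cells and in 50.5% and 39.5% of LYZKL cells. Over the T cell clusters, Il17a was in 50.7% of the 71 Csf2-positive WTKL cells and in 26.1% of the negative ones, and in 41.8% of the 55 positive LYZKL cells and 19.3% of the negative. The share with Il17a was thus higher among Csf2-positive T cells in both libraries, and so was that with Tnfsf11, at 29.6% against 19.1% and 38.2% against 17.1%. These shares are descriptions of cells of 1 library each, and cluster and activation differ between positive and negative cells.

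A member was counted as past 1.5-fold among genes with at least 20 UMIs over both libraries and at least 5 CPM in the higher one. Because the members were chosen from this contrast, the share of all tested genes past 1.5-fold is printed beside each count and nothing is read from it. In cluster 0, 3 members passed the minimum, Csf1 and Tnfsf11 were higher and Csf2 lower, where 9.4% of all tested genes were past 1.5-fold. In cluster 9 the same 3 genes had the same signs (13% of all genes), Csf2 there resting on 15 and 6 UMIs, and in cluster 16 all 3 were higher (27.7%). As in cluster 0, 1 WTKL cell held most of the Csf2 UMIs of cluster 9, 9 of the 15. Without the top cell of each library its levels there were 2.40 and 1.58 CPM, both under the minimum. In cluster 1 the only member tested, Tnfsf11, was lower (6.02%), in cluster 2 both tested, Tnfsf11 and Csf2, were lower (9.43%), and in cluster 8, 1 of 2 tested was lower, Tnfsf11 (10.8%). In cluster 5, 2 of 3 tested were lower, Tnfsf11 and Csf2ra (9.02%), the latter on 20 and 14 UMIs. In cluster 6, 1 of 4 tested was lower, Csf2ra on 19 and 30 UMIs (8.41%), while Tnfsf11 missed the fold. In cluster 14, 0 of 2 tested passed it (7.13%), and in the naive-type clusters 4 and 12, 0 of 1 did (10.2% and 12.3%).

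**Figure D3:**
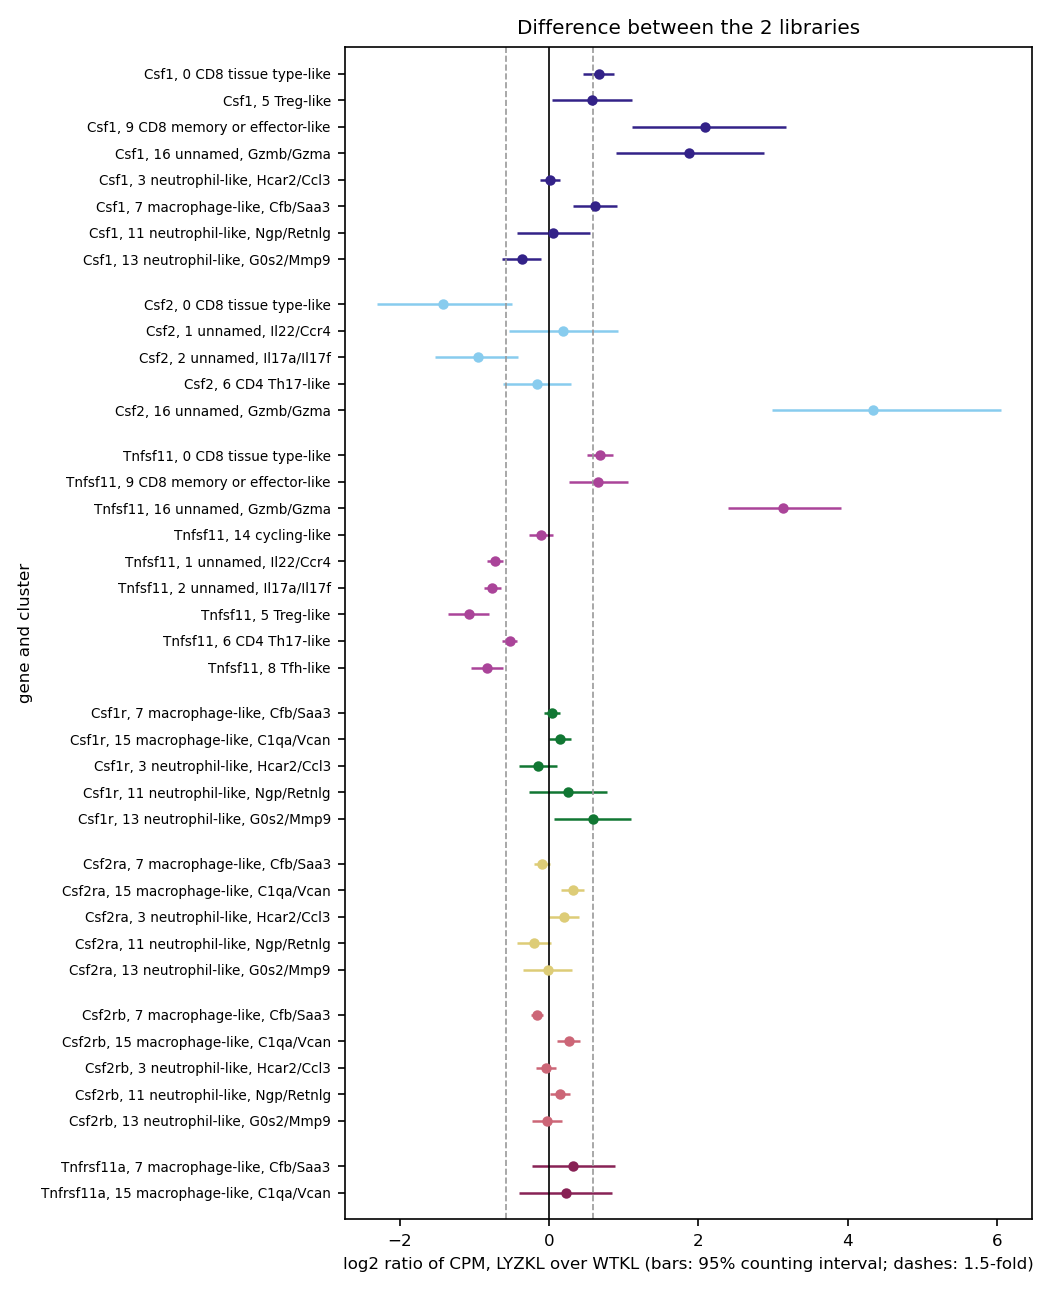
Log2 ratio of CPM, LYZKL over WTKL, for each member in a selection of clusters, with Tnfsf11 in T cell clusters only. Points are ratios, bars are 95% counting intervals, and dashed lines mark 1.5-fold. Tnfsf11 points lie left of 0 in the Cd4-type clusters and right of 0 in clusters 0, 9 and 16, and the receptor points in macrophage-like cells lie between −0.17 and 0.32.

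Cytokine genes of the T cells, from a list of 22, differed in both directions beside the ligands. In cluster 0, 15 were tested, 1 was higher and 4 lower (all genes past the fold, 9.4%), with a median log2 ratio of −0.24 against 0.058 for all genes. Ccl3 stood at 479 and 767 CPM, the T cell growth factor gene Il2 at 20.9 and 0.829 CPM and the chemokine gene Xcl1 at 1289.5 and 501 CPM. In cluster 2, 17 were tested, 2 were higher and 3 lower (all genes 9.43%; median 0.22 against −0.025), among them Il22 at 68.5 and 153 CPM and Il17f at 502 and 203 CPM. In cluster 6, 19 were tested, 6 were higher and 6 lower (all genes 8.41%; median −0.011 against −0.027), among them Il2 at 172 and 16.8 CPM, Il13 at 57.1 and 15.1 CPM and Il22 at 149 and 302 CPM. In cluster 1, 5 of 18 tested were higher and 2 lower (all genes 6.02%; median 0.34 against −0.016), with Il22 at 188 and 419 CPM and Il2 at 40.6 and 20.1 CPM. Il2 was thus lower in LYZKL in all 4 of these clusters, on the side of Tnfsf11 in the Cd4-type clusters and opposite to it in cluster 0, and Il22 was higher in clusters 1, 2 and 6, opposite to Tnfsf11.

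Regulators of the ligands in T cells, from a list of 16 that holds activation factors and cytokine receptors, passed 1.5-fold at counts that varied with the cluster. In cluster 0, where 9.4% of all genes passed, 0 of 13 tested were higher and 1 lower, Il2ra, the high-affinity IL-2 receptor chain, at 88.7 and 49.8 CPM. In cluster 1 (6.02%), 1 of 16 was higher, the IL-23 receptor gene Il23r at 103 and 156 CPM, and in clusters 2 (9.43%) and 5 (9.02%), 0 of 16 passed the fold. In cluster 6 (8.41%), 2 of 16 were lower, among them the NFAT gene Nfatc1 at 136 and 89.7 CPM. In cluster 8 (10.8%), 1 of 16 was higher and 3 lower, in cluster 9 (13%) 3 of 15 were higher, in cluster 14 (7.13%) 1 of 16 was higher and 1 lower, and in cluster 16 (27.7%) 4 of 13 were higher and 2 lower. The naive-type clusters 4 and 12, where 10.2% and 12.3% of all genes passed, had 2 higher and 1 lower of 13, and 0 higher and 1 lower of 13.

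The receptors were read in the myeloid clusters, where levels between the libraries differed by under 1.5-fold among the values tested, except for Csf1r in cluster 13. Csf1r, the M-CSF receptor, stood at 152 and 156 CPM in macrophage-like cluster 7, from 1168 and 1730 UMIs, with a ratio of 0.04 (−0.07 to 0.15). In cluster 15 it stood at 216 and 239 CPM, from 994 and 570 UMIs, with a ratio of 0.15 (−0.006 to 0.30). In both libraries cluster 15 lay above cluster 7, with intervals that did not overlap. Neutrophil-like clusters 3 and 13 followed, at 87.8 and 79.0 CPM and at 61.2 and 92.2 CPM, their intervals overlapping in LYZKL, and cluster 11 was last at 28.6 and 33.9 CPM. The ratio in cluster 13, 0.59 (0.07 to 1.09), rested on 107 and 48 UMIs. T cells and B-like cells had under 2 CPM, so Csf1r was a macrophage-like gene with a lower level in neutrophil-like cells, and 82.2% and 76.5% of its UMIs were from macrophage-like cells.

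Csf2ra, the GM-CSF-binding chain, differed less between myeloid types. It stood at 153 and 144 CPM in cluster 7, at 180.2 and 224 CPM in cluster 15, at 131 and 150.2 CPM in cluster 3, at 162 and 141 CPM in cluster 11 and at 201 and 198 CPM in cluster 13. The ratio in cluster 15 was 0.31 (0.15 to 0.47) and that in cluster 7 −0.10 (−0.20 to 0.02). T cells had 4.23 and 3.78 CPM, near the 9.49 and 14.1 CPM of B-like cells or below.

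Csf2rb, the signalling chain that the receptors for GM-CSF, IL-3 and IL-5 share, was highest in neutrophil-like clusters 13, at 515 and 505 CPM, and 11, at 429 and 473 CPM. Cluster 3 stood at 318 and 308 CPM, macrophage-like cluster 7 at 287 and 255 CPM and cluster 15 at 197 and 236 CPM. In WTKL the order was 13, 11, then 3 and 7, whose intervals overlapped, then 15; in LYZKL clusters 13 and 11 overlapped, as did 7 and 15. Over the neutrophil-like cells the log2 ratio was −0.17 (−0.25 to −0.10), but the G0s2 cluster 13, where the level is highest, made up 35.7% of them in WTKL and 6.98% in LYZKL, and with the clusters weighted alike it was 0.02. Within macrophage-like cells, cluster 7 had a ratio of −0.17 (−0.25 to −0.09) and cluster 15 one of 0.26 (0.11 to 0.41), and together they stood at 253 and 252 CPM.

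Csf2rb has a close copy beside it, Csf2rb2, the IL-3-specific beta chain of the mouse. Of 7227 stretches of 91 bases, the read length, in Csf2rb transcripts, 387 (5.35%) also occurred in Csf2rb2 transcripts, and 0 of the 410 in the last 500 bases did, so reads near the 3' end of the transcript can be told apart. Csf2rb2 stood at 57.3 and 66.1 CPM in macrophage-like cells, a log2 ratio of 0.20 (0.06 to 0.35), and at 56.4 and 65.5 CPM in neutrophil-like cells. It was highest in cluster 3, at 82.0 and 83.9 CPM, and in cluster 7, at 69.3 and 71.2 CPM, an order unlike that of Csf2rb.

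Tnfrsf11a, the RANK gene, was seen at low levels and mostly in macrophage-like cells, which held 78.9% and 85.3% of its UMIs. T cell clusters held 15.8% and 11.8%. Cluster 15 stood at 13.3 and 15.5 CPM (61 and 37 UMIs; log2 ratio 0.23, −0.40 to 0.84) and cluster 7 at 5.72 and 7.12 CPM (44 and 79 UMIs; 0.32, −0.23 to 0.88). Cluster 15 exceeded cluster 7 beyond the counting intervals in both libraries. Neutrophil-like cells had 1 and 0 UMIs, where 0 in LYZKL allows up to 0.341 CPM at a limit of 3 counts, B-like cells 0 in each library and T cells 0.470 and 0.298 CPM. Of the 5 named myeloid clusters, the C1q and Vcan cells were thus the highest in both RANK and Csf1r, in either library. Cluster 17, 74 and 67 unnamed cells of low UMI number, stood at 27.4 and 19.6 CPM of Tnfrsf11a, but from 6 and 4 UMIs, and at 178 and 196 CPM of Csf1r. A change of less than about the width of the intervals was not detectable at this depth.

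**Figure D4:**
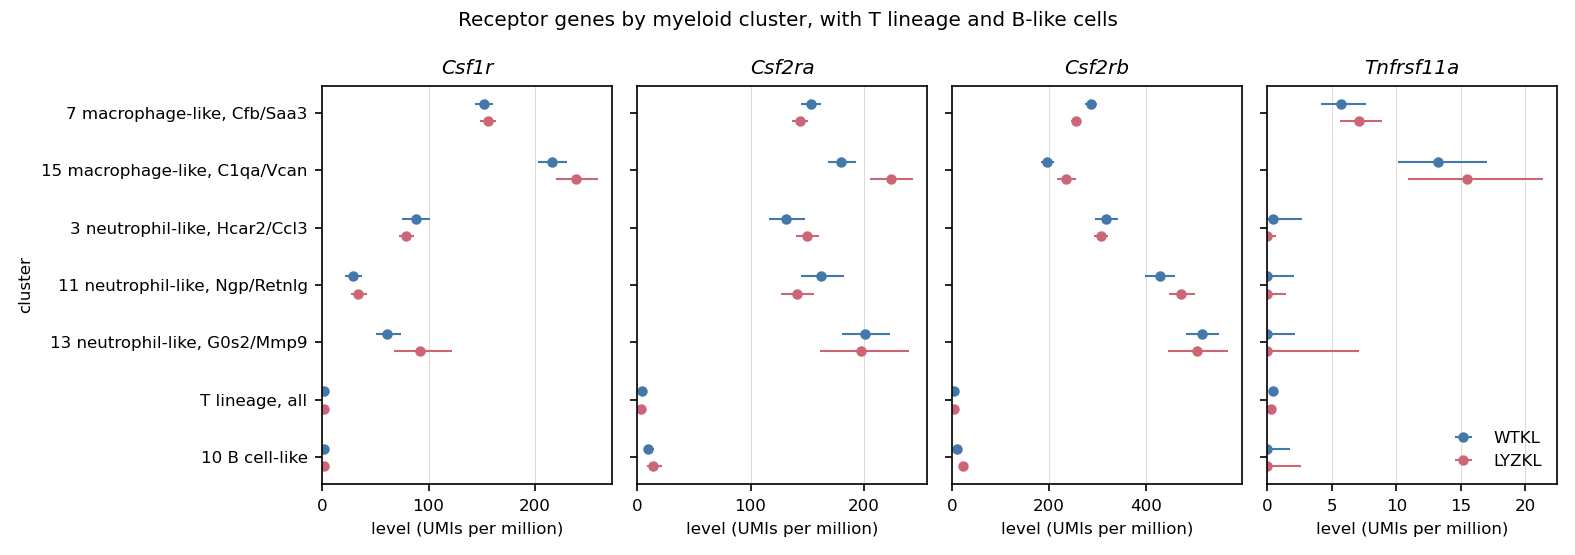
Levels of Csf1r, Csf2ra, Csf2rb and Tnfrsf11a in CPM (scaled to the UMIs of the cluster) in macrophage-like clusters 7 and 15, neutrophil-like clusters 3, 11 and 13, T cells and B-like cells of WTKL and LYZKL; points are levels and bars 95% Poisson intervals for counting error. Among the cells plotted, Csf1r and Tnfrsf11a are highest in cluster 15 and Csf2rb in cluster 13, in both libraries.

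Over the whole macrophage-like class the receptors were level between the libraries. The log2 ratios were −0.04 (−0.13 to 0.04) for Csf1r, −0.05 (−0.14 to 0.04) for Csf2ra, −0.01 (−0.08 to 0.06) for Csf2rb and 0.01 (−0.38 to 0.41) for Tnfrsf11a. Of 6 members tested there, 2 were past 1.5-fold, the ligands Csf1 and Tnfsf11, both higher, where 6.51% of all tested genes were; in cluster 7 the same 2 of 6 were higher (4.91%), and in cluster 15, 0 of 6 passed the fold (12.8%). In neutrophil-like cells 1 of 5 was lower, Tnfsf11, where 18.8% of all tested genes were past the fold. By cluster, Tnfsf11 was lower in clusters 3, 11 and 13, where 17.9%, 18% and 30.5% of all genes passed, and Csf1r was higher in cluster 13; those were 1, 1 and 2 of 5 members tested. Cluster 7 supplied 57.9% of these cells in WTKL against 81.0% in LYZKL, and with both clusters weighted alike the ratio was 0.08 for Csf1r and 0.04 for Csf2ra, while that of Csf1 was 0.51, no longer past 1.5-fold. Co-detection of the GM-CSF receptor chains showed no strong link within a cluster: in thinned cluster 7 cells, Csf2rb was found in 44.9% of Csf2ra-positive and 41.4% of Csf2ra-negative WTKL cells and in 43.2% and 37.1% of LYZKL cells.

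Genes known to depend on GM-CSF were listed with earlier results of these data known, so their counts are a description and nothing is read from them. Over the macrophage-like class the GM-CSF receptor chains were level. Of a list of 14, 12 were tested in macrophage-like cells, 0 were higher and 7 lower in LYZKL, where 2.38% of all tested genes were higher and 4.12% lower, with a median log2 ratio of −1.74 where that of all genes was −0.03. The carbonic anhydrase gene Car4 stood at 59.4 and 3.93 CPM, the surface protein gene Plet1 at 40.3 and 4.67 CPM and the chemokine gene Ccl17 at 297 and 66.7 CPM. The lectin gene Cd209a stood at 12.8 and 0.667 CPM, its relative Mgl2 at 27.7 and 6.67 CPM, and the fatty acid binding gene Fabp4 at 26.5 and 6.82 CPM. Car4, Plet1 and Cd209a met the minimum of 5 CPM only through WTKL, the library where they were higher. Within cluster 7, 5 of 10 tested were lower and 0 higher (all genes past the fold, 4.91%; median −1.04 against 0.012), with Car4 at 94.7 and 4.69 CPM, and within cluster 15, 5 of 11 were lower and 2 higher (all genes 12.8%; median −0.56 against −0.029), with Ccl17 at 465 and 127 CPM. With a minimum of 20 CPM the median in cluster 7 was −0.21, with 4 of 9 lower. Of the 14 genes, 6 are also markers of alveolar macrophages and 3 of dendritic cells. The summed alveolar macrophage list stood at 2191.9 and 2286.9 CPM and the dendritic cell list at 4746.7 and 4480.7 CPM in macrophage-like cells. All 10 and all 11 genes were seen in both libraries. These sums do not show that each marker was level. Car4, Plet1 and Fabp4 of the first list and Ccl17 and Cd209a of the second were lower in LYZKL, as given above. Fewer cells of such a type and less RNA per cell cannot be told apart, and a link to Csf2 was not tested.

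The other pathway genes in macrophage-like cells showed few differences of that size. Of all genes tested there, 6.51% were past 1.5-fold, 2.38% higher and 4.12% lower. That share stands beside each count of the pooled class below made at the 5 CPM minimum. Of 16 genes around Csf1r, 15 were tested, 0 were higher and 2 lower, the chemokine receptor gene Cx3cr1 at 34.8 and 19.1 CPM and the mannose receptor gene Mrc1 at 59.0 and 34.0 CPM. Of 15 genes around the beta chain, 0 of 12 tested passed the fold, and of 11 around RANK, 0 of 10 did, with medians of −0.06 and 0.05. Il34, the second ligand of Csf1r, had 20 UMIs over all cells of each library, and Tnfrsf11b, the decoy receptor of RANKL, had 1 and 0. Genes that osteoclasts use, a list of 10, split: of 5 tested, the protease gene Ctsk (132 and 265 CPM) and the proton pump gene Atp6v0d2 (118 and 181 CPM) were higher, and the metalloprotease gene Mmp9 (5.69 and 1.33 CPM) and the fusion gene Dcstamp (18.9 and 11.3 CPM) were lower. At a minimum of 20 CPM only the 2 higher ones were past the fold. Cluster 7, with Ctsk among its leading genes, made up 57.9% of macrophage-like cells in WTKL and 81.0% in LYZKL. Around Csf1r, 1 of 15 tested was lower in cluster 7 (all genes 4.91%) and 0 of 15 passed in cluster 15 (12.8%). Of 5 osteoclast genes tested in each, cluster 7 had 1 higher and 2 lower, and cluster 15 had 2 higher and 1 lower. How much of the pooled differences came from this make-up was not tested.

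Across 37 sums of a cluster in a library, the genes whose levels ranked most like each member were found among 10681 genes. They were Cd80, Hilpda and Litaf for Csf1 (Spearman's rho 0.893, 0.888 and 0.865), Rgs1, Utf1 and Slc25a24 for Csf2 (0.815, 0.812 and 0.811), and Farp1, Rora and Fam20a for Tnfsf11 (0.924, 0.924 and 0.918). For the receptors they were Cfp, Tgfbi and Cxcl2 for Csf1r (0.850, 0.846 and 0.845), Atp13a2 and Sema6b for Csf2ra (0.881 and 0.872), and Pde7b, Tctex1d2 and Sema6b for Csf2rb (0.905, 0.879 and 0.875). Tnfrsf11a was most like Klrb1b, Lgals3bp and Sestd1, at a lower 0.741, 0.734 and 0.727. Sema6b was named for both GM-CSF receptor chains. The sums share libraries, and a cluster counts once in each library, so these values describe rank order over clusters.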

How the data were processed

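Both deposited matrices give UMI counts as whole, unnormalized numbers, which the authors made with Cell Ranger 6.1.2 and mm10 per the submitters' processing notes. They hold 12204 WTKL and 13607 LYZKL barcodes, where the labels state 6609 and 7202 cells and 10000 targeted, and 77181312 and 93584629 UMIs in all. The members and gene lists were chosen with earlier results of these data known.

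Cells passed with 500 or more genes and no more than 10% of UMIs from mitochondrial genes (12003 and 13451). Scrublet in scanpy 1.11.5 (Python 3.11.15) marked 1 and 2 cells by its automatic threshold, so the 1153 and 1447 highest scores, 0.8% per 1000 cells, were removed. Cells of both libraries were clustered together on 2000 variable genes without the members and list genes (30 principal components, 15 neighbours, Leiden resolution 1, leidenalg 0.10.2). Clusters were named only from marker lists. The naming minimum, the level of 250 CPM of T cell markers for T cell clusters, the Cd4-type rule (at least 200 CPM of Cd4, at most 50 CPM of Cd8a, neither cycling-like nor closest to a naive class) and the split of macrophage-like cells by T cell markers were chosen once the data had been seen.

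UMIs were summed per cluster and library and scaled by the cluster's total. Intervals (scipy 1.17.1; exact Poisson for levels, Clopper-Pearson for shares, conditional binomial for ratios) are at 95% and cover counting error only. With 1 library per group there was no test. The named genes are the members, Csf2rb2, list genes past 1.5-fold (up to 6 per list and class, of which examples are given) and the 3 genes ranked most like each member; some items are not reported here. The interval calculation was tested on simulated data. Alternatives included edgeR 4.0.16 TMM scaling (R 4.3.3), other cell filters and other clusterings. Promoter windows are from RefSeq and gene positions from an annotation of GRCm38, the same assembly as mm10.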

Additional observations from a re-analysis of the deposited data

Results flagged for a closer look

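Tnfsf11 lay on opposite sides in different T cell clusters of the same contrast, with counting intervals clear of 0. Its log2 ratio of LYZKL over WTKL was 0.68 in cluster 0, 0.66 in cluster 9 and 3.13 in cluster 16, and it was −0.73, −0.77, −1.08, −0.53 and −0.83 in clusters 1, 2, 5, 6 and 8. For Csf2 the ratio was 4.34 in cluster 16, −1.42 in cluster 0 and −0.96 in cluster 2, of which the first 2 rest on a few cells. For Csf2rb, the ratio was 0.14 in neutrophil-like cluster 11, 0.26 in macrophage-like cluster 15 and −0.17 in macrophage-like cluster 7. With 1 library per group the differences between clusters were not tested.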

How the results depend on the processing

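Of 291 recomputed values, 26 had the other sign, 3 of them from a ratio past 1.5-fold, and 37 besides those 3 left the counting interval. The log2 ratio of Csf1 in cluster 0 was 0.95 with doublets kept, 1.34 at resolution 0.5, 1.36 with 15 principal components and 1.66 with cells classed by marker UMIs, and that of Tnfsf11 there was 1.10 at resolution 0.5, 1.10 with 15 components and 1.62 by marker UMIs. Tnfsf11 in the Cd4-type clusters was −0.48 with doublets kept and −0.69 with clusters weighted alike. In cluster 6 it was −0.21 with another seed, and by marker UMIs it was −0.40 in cluster 2 and −0.63 in cluster 5. In cluster 8 it was 0.0090 by marker UMIs, which reversed it. Tnfsf11 in macrophage-like cells, at 0.60, was also reversed, to −0.64, when the cells with T cell marker UMIs were left out. Csf2 was −0.40 by marker UMIs in cluster 2, and in cluster 6 it was 0.63 as a mean of per-cell CPM and 0.32 with 15 components. In cluster 16 it was 2.68 and 2.81 with at least 200 and at least 1000 detected genes, 2.12 with at most 5% mitochondrial UMIs, 2.09 with doublets kept and −3.16 by marker UMIs. Csf1r in macrophage-like cells was −0.14 as a mean of per-cell CPM and 0.076 with clusters weighted alike, and Csf2ra there was 0.042 with clusters weighted alike and −0.15 in cells without T cell marker UMIs. The cause of these shifts was not tested. The weighting of Cd4-type clusters and the restriction to cells without T cell marker UMIs were chosen after seeing the data. The preset doublet rate in both libraries is the setting used throughout, so it gave no separate value.

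No paired analysis was possible because each group has 1 library. Csf2, Tnfrsf11a and the Csf1 of cluster 16 have too few UMIs to resolve small differences, and no interval here holds the spread between mice.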
